A study of Homo sapiens with 24 samples.

Results

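SLNCR is a long noncoding RNA of melanoma cells, and the comparison described here asks what changes when its triplex-forming region 4 is left out. Members were the 6 libraries that the labels of batch 2 place in 2 groups, out of 24 libraries in the series: 3 with full-length SLNCR (FL) and 3 with SLNCR that lacks region 4 (ΔTFR4). All libraries came from A375, an established human melanoma line, and the study asks which genes depend on the triplex-forming regions. FL cells were transfected with a pcDNA3.1 plasmid that carried the whole RNA behind a CAG promoter, and ΔTFR4 cells with the same plasmid and RNA without region 4. Plasmids entered the cells with Lipofectamine 2000 and also held a puromycin resistance gene, and all groups, controls included, were kept in puromycin (2 µg/mL) for 48 h until lysis. The same batch held 3 libraries with empty vector and 3 with SLNCR that lacks region 5 (ΔTFR5), which served here to estimate the spread and as side values. The labels call each library a biological replicate and name no clone, so every value is an average over a transfected and selected culture. RNA was depleted of ribosomal RNA and sequenced on an Illumina HiSeq.

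Triplex-forming regions are parts of an RNA that can settle in the major groove of double-stranded DNA and bind one of its strands. Such pairing needs an uninterrupted run of purines on that DNA strand, which is why purine runs in promoters are of interest for such RNAs. In melanoma, SLNCR is known for work that links it with invasion, with the matrix metalloproteinase MMP9 and with the growth arrest gene CDKN1A, with a part for the transcription factors POU4F1 and EGR1.

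Promoters of genes with large changes are shown first, since a purine run there is the feature a triplex needs. They come from RefSeq's promoter table (GRCh38.p14). Among the 15 largest rises, of genes with a mean level of at least 1 log2 CPM (CPM are counts scaled to the library's total), the first 3 with an entry were TENM1, MUC2 and DLGAP1, and among the 15 largest falls they were SERPINA3, UCN2 and RRM2. Each window holds the 250 bases before a start that the promoter table gives for the gene, 5′ to 3′ on the strand of the gene. Capitals mark the longest run of purines (A and G) on either strand, so that a capital run of C and T is a purine run on the other strand. Where a window holds several longest runs of equal length, as in SERPINA3 and RRM2, only the first is marked. TENM1 lies at chrX:125204313-125204562 on the minus strand, MUC2 at chr11:1074624-1074873 on the plus strand and DLGAP1 at chr18:3874761-3875010 on the minus strand. SERPINA3 lies at chr14:94612141-94612390 on the plus strand, UCN2 at chr3:48563782-48564031 on the minus strand and RRM2 at chr2:10122489-10122738 on the plus strand. For TENM1, DLGAP1 and RRM2 the first of 2 entries is given.
TENM1: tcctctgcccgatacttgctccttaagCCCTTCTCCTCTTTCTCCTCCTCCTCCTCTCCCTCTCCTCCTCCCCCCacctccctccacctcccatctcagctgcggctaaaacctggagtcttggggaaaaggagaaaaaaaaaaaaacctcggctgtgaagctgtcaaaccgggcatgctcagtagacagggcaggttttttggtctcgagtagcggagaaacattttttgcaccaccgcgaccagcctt
MUC2: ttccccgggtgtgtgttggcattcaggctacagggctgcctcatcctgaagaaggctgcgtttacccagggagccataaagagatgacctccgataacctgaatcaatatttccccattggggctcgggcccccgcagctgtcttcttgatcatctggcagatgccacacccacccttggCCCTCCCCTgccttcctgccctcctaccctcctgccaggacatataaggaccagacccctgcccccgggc
DLGAP1: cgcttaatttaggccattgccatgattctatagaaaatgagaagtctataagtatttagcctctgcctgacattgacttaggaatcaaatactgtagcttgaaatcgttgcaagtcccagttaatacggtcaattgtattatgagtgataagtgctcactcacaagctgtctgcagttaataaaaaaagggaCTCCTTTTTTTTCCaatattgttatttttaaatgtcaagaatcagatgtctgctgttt
SERPINA3: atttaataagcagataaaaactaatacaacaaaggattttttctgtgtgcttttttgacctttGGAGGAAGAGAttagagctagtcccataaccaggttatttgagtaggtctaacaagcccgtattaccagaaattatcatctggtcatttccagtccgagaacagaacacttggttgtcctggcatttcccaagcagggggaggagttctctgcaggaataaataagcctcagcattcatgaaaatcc
UCN2: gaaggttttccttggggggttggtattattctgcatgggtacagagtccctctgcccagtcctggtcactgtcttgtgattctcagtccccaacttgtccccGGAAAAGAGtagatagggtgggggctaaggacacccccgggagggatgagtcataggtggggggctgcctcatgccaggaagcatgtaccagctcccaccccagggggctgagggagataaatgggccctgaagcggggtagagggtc
RRM2: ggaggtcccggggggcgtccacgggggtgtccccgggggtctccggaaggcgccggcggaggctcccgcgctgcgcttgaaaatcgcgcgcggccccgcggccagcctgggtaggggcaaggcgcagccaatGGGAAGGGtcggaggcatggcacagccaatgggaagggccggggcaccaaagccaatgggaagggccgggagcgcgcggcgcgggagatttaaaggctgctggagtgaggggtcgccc

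The TENM1 window held a purine run of 48 bases on the strand opposite to the gene. The longest runs of the other windows were 9 bases in MUC2, 14 in DLGAP1, 11 in SERPINA3, 9 in UCN2 and 8 in RRM2. How often a run as long as that of TENM1 occurs was not counted. A run of at least 15 bases occurred in 17.5% of all 35116 windows of the table, so such a run is common in windows of this length. Among genes with an entry, 20.1% of 249 that were called higher and 19.3% of 342 that were called lower held one, beside 17.5% of 11808 tested genes. These shares describe the letters in these windows, and they lay within 3 percentage points of each other.

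Totals ran from 25782653 to 26395119 estimated counts in the ΔTFR4 libraries and from 28047809 to 33063445 in the FL libraries. The ΔTFR4 libraries resembled each other, with Spearman correlations across genes of 0.99 for each pair, and the FL libraries did not, at 0.954 to 0.979. FL replicate 1 stood apart: its genes deviated from their means with GC content (Spearman correlation across genes -0.54), while the same value ran from 0.01 to 0.24 in the other libraries of both groups. FL replicate 3 lay near the empty vector libraries on the first principal component, at -39.4 against -60.7 to -49.4, with the other FL libraries at 18.8 and 49.6. Values without them are given beside the calls of named genes that were then lost and beside many of the list counts and medians that moved.

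SLNCR itself was measured first, as a check of the labels. Its counts stand under the symbol LINC00511 (ENSG00000227036, chr17:72290091-72640472 in GENCODE 29, GRCh38), which also takes in other transcripts of that gene and cannot separate plasmid from endogenous RNA. The level in CPM was 728, 658 and 334 in FL and 515, 498 and 444 in ΔTFR4, beside 30.1, 29.1 and 27.9 with empty vector and 321, 376 and 192 in ΔTFR5. The ΔTFR4 libraries thus lay inside the range of the FL libraries, and every library that received a plasmid with SLNCR lay above every empty vector library. ΔTFR4 differed from FL by -0.24 ± 0.26 on the log2 scale (mean difference ± standard error, adjusted p = 0.618 by edgeR's quasi-likelihood test with Benjamini-Hochberg adjustment), which does not show that the levels were equal. Without FL replicate 1 the difference was -0.04, and without FL replicate 3, the FL library with the least SLNCR, it was -0.52. The size of the RNA was not read from these gene counts, so the deletion itself was not checked.

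Genes with an adjusted p under 0.05 are here referred to as called. Of 18763 genes tested, 819 (4.36%) were called in ΔTFR4 against FL, with 356 higher (1.9%) and 463 lower (2.47%). Of the called genes, 324 had a log2 fold change of 1 or more in size, 176 upward and 148 downward, and the median size of a called change was 0.88. The groups' libraries did not overlap for 815 of the 819, beside 4539 of all 18763 tested genes. Called genes also differed in base content: the median GC content was 54.9% for genes called higher, 43.2% for genes called lower and 48.1% for all tested genes. The part of GC content in the calls was tested only by removing each library's GC trend, which gave 1374 calls, 697 of them shared with the 819 in direction. The count depended on the libraries used for the spread: the 6 libraries of FL and ΔTFR4 alone gave 33 calls, of which 31 were among the 819. It was 1708, 1576 and 2220 without FL replicate 1, 2 or 3, and 114, 79 and 168 without ΔTFR4 replicate 1, 2 or 3. Among genes of the reported fit, those without FL replicate 1, 2 or 3 called 626, 720 and 775 higher and 1077, 843 and 1428 lower. These were out of 18752, 18758 and 18752 genes, and list counts from those fits are to be read beside them.

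**Figure D1:**
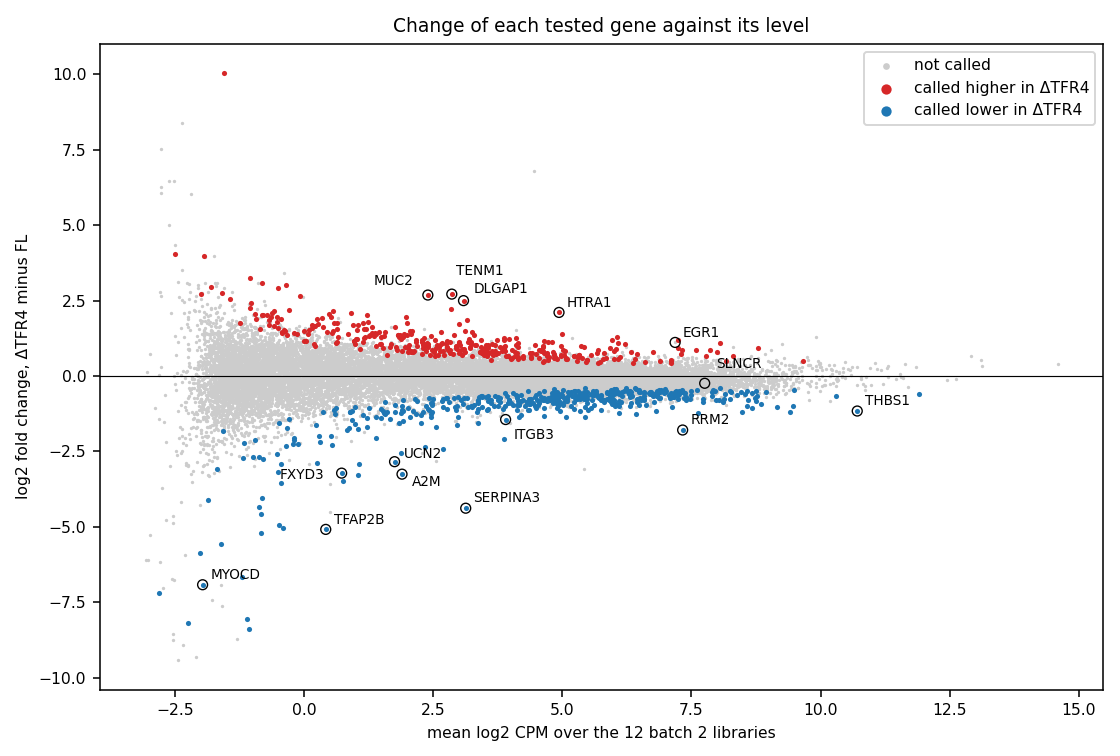
Change of each of the 18763 tested genes (log2 fold change, ΔTFR4 minus FL, vertical axis) against its mean log2 CPM over 12 libraries (horizontal axis). Red points are the 356 genes called higher and blue points the 463 called lower; named genes are circled, among them SERPINA3 at -4.38 and TENM1 at 2.71, with SLNCR and EGR1 not called.

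Of 78 called genes that the naming rule takes and that are reported here, 20 were called under each of the 15 alternative settings, including the fit of the 6 libraries alone: SERPINA3, A2M, FXYD3, TFAP2B, MYOCD, UCN2, ITGB3, THBS1, RRM2 and IQCJ-SCHIP1 among the falls, and TENM1, MUC2, DLGAP1, HTRA1, DNAH1, ZNF862, CEACAM19, ABCA3, PARD3B and SRGAP3 among the rises. The other 58 were not called in the fit of the 6 libraries alone, and 50, 49 and 42 of them were not called without ΔTFR4 replicate 1, 2 or 3. For 20 genes the call was also lost under another setting: ADM, ARHGEF17, BRIX1, CCNA2, FLRT1, HNRNPU, HSD17B7, HSP90AA1, IDI1, MMP1, MMP3, NOG, NRG1, NUPR1, OAS2, RBFOX3, SLC30A1, SRSF4, TGFBI and ZMAT3. IQCJ-SCHIP1 is a readthrough gene that overlaps its neighbour SCHIP1, so reads assigned to it are uncertain.

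**Figure D2:**
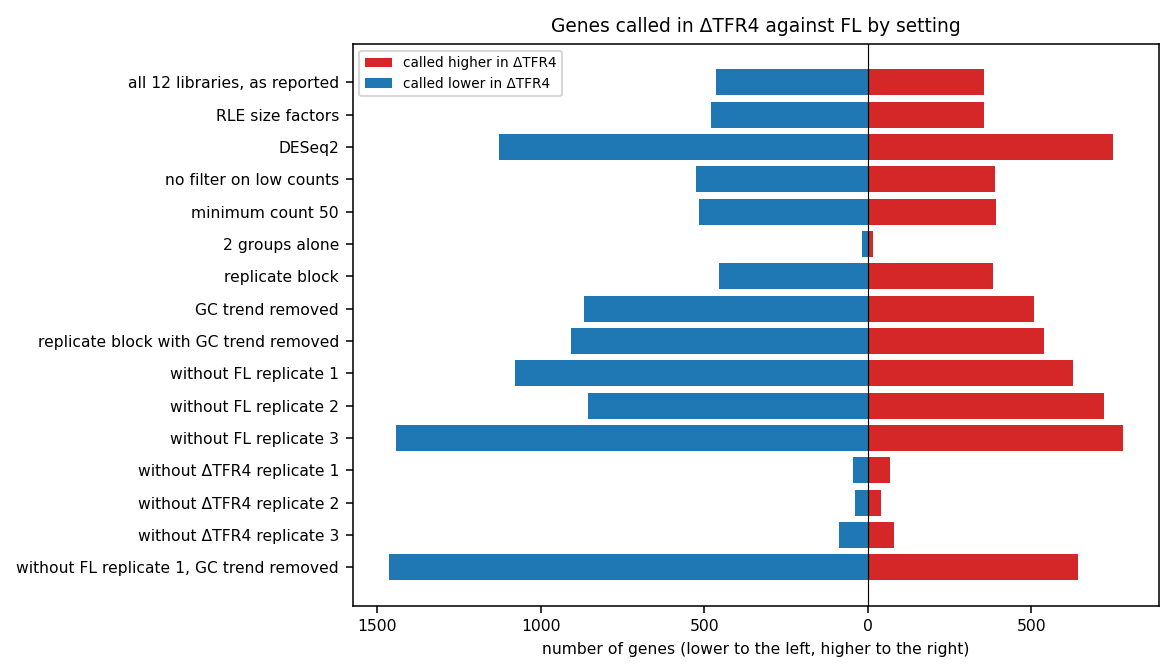
Number of genes called in ΔTFR4 against FL (horizontal axis, lower to the left and higher to the right) under the reported setting and 15 alternatives (vertical axis). The count ran from 33 in the fit of 2 groups alone to 2220 without FL replicate 3.

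Secreted protease inhibitors were among the steepest falls. SERPINA3 encodes alpha-1-antichymotrypsin, an inhibitor of serine proteases. It stood at 9.16, 11.7 and 14.1 CPM in the FL libraries and at 0.579, 0.567 and 0.521 in the ΔTFR4 libraries, beside 27, 30.2 and 16.1 with empty vector and 30.1, 35 and 38.1 in ΔTFR5. All ΔTFR4 libraries were thus more than 10 times below every other library of the batch. SERPINA3 fell by 4.38 ± 0.29 in ΔTFR4 against FL (adjusted p = 9.66e-06), and by 5.94 ± 0.29 against ΔTFR5 (adjusted p = 5.32e-07). Leaving out FL replicate 1 or 3 gave -4.53 and -4.22. A2M, which encodes the broad protease trap alpha-2-macroglobulin, stood at 5.23, 3.36 and 5.56 CPM in FL and 0.502, 0.604 and 0.372 in ΔTFR4. It fell by 3.25 ± 0.31 (adjusted p = 0.000216), and its ΔTFR5 libraries, at 8.19, 7.27 and 12.6, lay with the empty vector libraries at 8.03, 9.27 and 6.85.

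The secreted metalloproteinases MMP1 and MMP3 fell too, with a wider spread in FL. MMP1, the interstitial collagenase, was 2.13, 2.84 and 7.75 CPM in FL and 0.888, 0.227 and 0.558 in ΔTFR4 and fell by 2.92 ± 0.61 (adjusted p = 0.022). MMP3, or stromelysin-1, was 10.8, 14.9 and 41.8 in FL and 6.37, 3.89 and 5.65 in ΔTFR4 and fell by 2.09 ± 0.51 (adjusted p = 0.0413). In both genes the highest FL value came from replicate 3, the FL library near the empty vector libraries, which stood at 35.9, 29.1 and 44.6 for MMP3. Without that library the differences were -2.15 for MMP1 (adjusted p = 0.0257) and -1.28 for MMP3 (0.0711), so the MMP3 call was lost. MMP11, or stromelysin-3, went the other way, from 0.42, 0.664 and 0.906 to 2.67, 1.81 and 2.12 CPM, and rose by 1.72 ± 0.36 (adjusted p = 0.0218). Among 25 tested matrix proteases and inhibitors, 4 were called lower and 1 higher (20% called, beside 4.36% of all tested genes), and the median log2 difference was -0.44, beside -0.02 over all tested genes. Without FL replicate 1 that median was -0.10. MMP9 was not tested, as it had 20 counts over the 12 libraries.

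Cell surface receptors for matrix also changed. ITGB3, the beta subunit of the vitronectin receptor, was 14.2, 15.6 and 17.7 CPM in FL and 5.64, 5.1 and 6.77 in ΔTFR4, with 26.2, 25.9 and 23.8 in the empty vector libraries. It fell by 1.44 ± 0.17 (adjusted p = 0.0012), and by 1.87 ± 0.17 against ΔTFR5 (adjusted p = 7.55e-05). ITGA9, an alpha subunit that pairs with beta 1, was low, at 2.25, 0.443 and 1.16 in FL and 0.0386, 0.189 and 0.186 in ΔTFR4, and fell by 3.18 ± 0.61 (adjusted p = 0.0146), or by 2.51 without FL replicate 1. ITGB4, the beta subunit of the hemidesmosome integrin, rose by 0.85 ± 0.16 (adjusted p = 0.0126), from 135, 210.3 and 208 to 331, 295 and 374 CPM. Of 17 tested integrin subunits these were the only ones called, 1 higher and 2 lower, with a median of -0.26. Fits without FL replicate 1 or 3 called 2 higher and 3 lower (median -0.12) and 3 higher and 2 lower (median -0.28). EPHA3, a receptor for ephrins, fell by 1.55 ± 0.28 (adjusted p = 0.0119). Its ΔTFR4 libraries, at 0.966, 0.944 and 1.38 CPM, lay below those of FL at 4.57, 2.4 and 2.69 and those of ΔTFR5 at 8.43, 8.2 and 10.8.

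Transcription factors were among the falls. TFAP2B, a factor of the AP-2 family active in neural crest derivatives, was 3.72, 1.44 and 1.66 CPM in FL and 0.0773, 0.0755 and 0.0372 in ΔTFR4, which corresponds to 216 against 5 counts. The ratio of these levels was 37.0, with an exact 95% interval of 15.6 to 115 that covers counting error only (adjusted p = 0.000253). The empty vector and ΔTFR5 libraries held 3.17, 2.86 and 2.5 and 4.77, 3.46 and 3.31 CPM, so of the 4 groups ΔTFR4 was by far the lowest. SOX5, a SOX family factor, fell by 1.62 ± 0.21 (adjusted p = 0.00227), from 7.57, 5.31 and 7.87 to 2.2, 2.57 and 1.97 CPM. HES1, a repressor that Notch signalling turns on, fell by 1.56 ± 0.27 (adjusted p = 0.0102), from 6.13, 5.28 and 9.56 to 1.7, 2.42 and 2.97 CPM.

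MYOCD encodes myocardin, a coactivator of muscle genes. It was 4.87, 3.91 and 1.97 CPM in FL and held 2, 0 and 0 counts in the ΔTFR4 libraries. The empty vector and ΔTFR5 libraries held 1 or 2 counts each, so the transcript was found above that level in FL alone. FL exceeded ΔTFR4 by a ratio of 142 (exact 95% interval 39.0 to 1177, counting error only; adjusted p = 0.000253), and ΔTFR4 against empty vector gave an adjusted p of 0.637.

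UCN2 and FXYD3 were among the genes called lower under each alternative. UCN2 encodes urocortin 2, a peptide of the corticotropin-releasing factor family. It was 5.02, 5.9 and 7.25 CPM in FL and 0.579, 0.831 and 1.12 in ΔTFR4 and fell by 2.84 ± 0.34 (adjusted p = 0.00155). FXYD3, a regulator of the sodium pump, was 2.4, 2.18 and 2.56 in FL and 0.27, 0.189 and 0.297 in ΔTFR4 and fell by 3.22 ± 0.28 (adjusted p = 0.000114). In both cases the groups were far apart, and no FL library came within a factor of 4 of a ΔTFR4 library. GAS7, linked with the actin cytoskeleton, fell by 2.55 ± 0.32 (adjusted p = 0.00227), and SYTL5, a Rab27-binding protein of vesicle traffic, by 1.48 ± 0.26 (adjusted p = 0.0107). RAB39A, a small GTPase of vesicle traffic, fell by 1.67 ± 0.32 (adjusted p = 0.0142). DLEU2, the host transcript of 2 microRNA genes, fell by 1.68 ± 0.29 (adjusted p = 0.00935), from 15.5, 6.53 and 9.09 to 3.55, 3.44 and 2.75 CPM.

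The largest rises included genes best known from the nervous system. TENM1 encodes teneurin-1, a transmembrane protein of synaptic contacts. It was 6.22, 4.61 and 4.72 CPM in FL and 32.5, 35.4 and 34.4 in ΔTFR4, beside 5.67, 4.05 and 3.48 with empty vector and 4.41, 4.06 and 2.37 in ΔTFR5. TENM1 rose by 2.71 ± 0.24 (adjusted p = 0.000114), and by 3.24 ± 0.25 against ΔTFR5 (adjusted p = 1.8e-05). DLGAP1, a scaffold of the postsynaptic density, was 6.37, 6.31 and 3.4 in FL and 29.8, 33.5 and 27.6 in ΔTFR4 and rose by 2.5 ± 0.25 (adjusted p = 0.000253). Its ΔTFR5 libraries, at 5.81, 6.06 and 3.58, and its empty vector libraries, at 7.19, 6.06 and 6.02, lay near those of FL. NLGN1, a neuroligin of excitatory synapses, rose by 2.17 ± 0.36 (adjusted p = 0.00861), and the adhesion molecule NCAM1 by 0.68 ± 0.16 (adjusted p = 0.0324). Of 29 tested neuronal and axon guidance genes 3 were called higher (TENM1, NLGN1 and NCAM1) and 2 lower, with a median of 0.04. The members called lower were the axon guidance ligands SLIT2, which fell by 1.13 ± 0.21 (adjusted p = 0.012), and SEMA3D. Fits without FL replicate 1 or 3 called 4 higher and 3 lower (median 0.04) and 3 higher and 5 lower (median 0.03).

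MUC2 and HTRA1, which encode secreted proteins, were among the largest rises. MUC2, a gel-forming mucin of the gut, was 4.48, 3.25 and 2.25 CPM in FL and 18.6, 22 and 23.6 in ΔTFR4, beside 7.32, 7.38 and 5.46 in ΔTFR5. It rose by 2.68 ± 0.23 (adjusted p = 0.000114), and by 1.67 ± 0.22 against ΔTFR5 (adjusted p = 0.00277). HTRA1, a secreted serine protease, was 13.1, 20.1 and 19.3 in FL and 83.9, 75.3 and 67 in ΔTFR4 and rose by 2.11 ± 0.17 (adjusted p = 6.14e-05). The ΔTFR5 libraries lay between these groups, at 40.3, 45.6 and 38.4 CPM. DNAH1, a heavy chain of ciliary dynein, rose by 2.22 ± 0.29 (adjusted p = 0.00227), and ABCA3, a lipid transporter, by 1.86 ± 0.27 (adjusted p = 0.00419). The polarity protein gene PARD3B rose by 1.74 ± 0.25 and SRGAP3, a regulator of small GTPases, by 1.71 ± 0.24 (adjusted p = 0.00415 and 0.004). The remaining genes of the 15 largest rises were ZNF862, CEACAM19, TMEM9B-AS1, POU6F1, FLRT1, ATP6V1FNB and LINC00431, with differences from 1.56 to 2.01. TMEM9B-AS1 is an antisense gene whose reads may come from its partner, since the strand setting is not given in the sources used here.

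**Figure D3:**
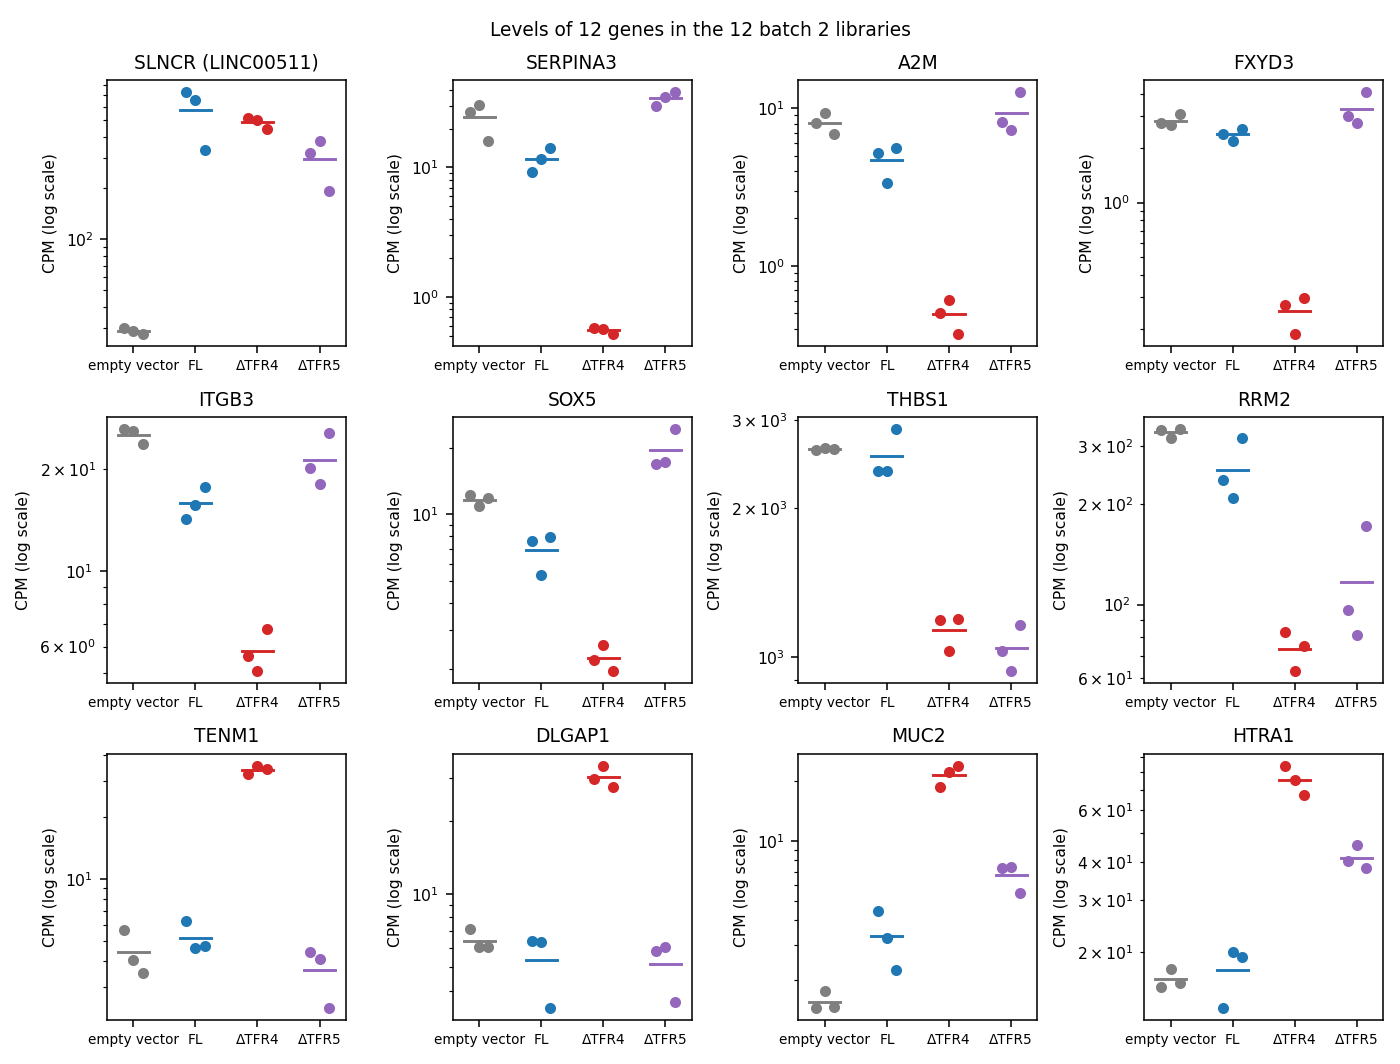
Level (CPM, log scale, vertical axes) of 12 genes in each of the 12 libraries of batch 2 by group (horizontal axes); points are libraries and lines group means. SERPINA3, A2M, FXYD3, ITGB3 and SOX5 were lowest and TENM1, DLGAP1, MUC2 and HTRA1 highest in ΔTFR4, while THBS1 had group means of 1137 and 1043 CPM in the 2 deletions and 2539 in FL.

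In the extracellular matrix the called genes went both ways. THBS1 encodes thrombospondin-1, a secreted glycoprotein that binds matrix and cells. It was 2366, 2375 and 2877 CPM in FL and 1188, 1032 and 1192 in ΔTFR4, with 2619, 2643 and 2631 in empty vector and 1029, 940.4 and 1159.6 in ΔTFR5. THBS1 fell by 1.16 ± 0.12 in ΔTFR4 against FL (adjusted p = 0.000519), and its difference from ΔTFR5 was 0.12 ± 0.12 (adjusted p = 0.793). Every library of the 2 deletions lay below every FL and empty vector library. The small proteoglycan biglycan (BGN) was 6.79, 9.89 and 5.87 CPM in FL and 22.2, 22.2 and 19.4 in ΔTFR4 and rose by 1.5 ± 0.21 (adjusted p = 0.004), beside 1.99, 2.57 and 1.55 with empty vector. COL6A3, a chain of collagen VI, rose by 1.41 ± 0.2 (adjusted p = 0.00419), and TGFBI, a matrix protein induced by TGF-beta, fell by 0.51 ± 0.11 (adjusted p = 0.0242). Of 34 tested matrix genes 5 were called higher and 4 lower, and the median was 0.05, or -0.12 without FL replicate 1.

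Genes of DNA replication lay lower in ΔTFR4 than in FL in every case. RRM2, the regulated subunit of ribonucleotide reductase, was 237, 209 and 317 CPM in FL and 82.5, 63.3 and 74.9 in ΔTFR4 and fell by 1.79 ± 0.24 (adjusted p = 0.00317). Every ΔTFR4 library thus lay below every FL library. GINS1, part of the replicative helicase, fell by 1.35 ± 0.26 (adjusted p = 0.0158), and RFC3, a subunit of the clamp loader, by 0.65 ± 0.12 (adjusted p = 0.013). Of 40 tested replication genes 8 were called lower and 0 higher, beside 2.47% and 1.9% of all tested genes, and all 40 differences were below 0, with a median of -0.68; over all tested genes 9803 of 18763 were below 0. The members' median deviation from their mean over the 12 libraries was -0.55, -0.10 and 0.66 log2 CPM in FL and -0.52, -0.81 and -0.41 in ΔTFR4, so the groups overlapped through FL replicate 1. Without that library 31 of the 40 were called lower, with a median of -0.94; without FL replicate 3 it was 7, with a median of -0.27. Leaving out any 1 of the ΔTFR4 libraries left 2 called. In these bulk samples fewer dividing cells and less of these transcripts per cell cannot be told apart.

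Genes of G2 and mitosis followed the same direction. TPX2, a spindle assembly factor, was 346, 289.6 and 343 CPM in FL and 188, 187 and 182 in ΔTFR4 and fell by 0.81 ± 0.14 (adjusted p = 0.00853). CCNA2, which encodes cyclin A2, was 95.4, 64.2 and 112 in FL and 41.1, 37.4 and 37 in ΔTFR4 and fell by 1.23 ± 0.26 (adjusted p = 0.0228). Without FL replicate 1 the call of CCNA2 was lost (adjusted p = 0.0601). The groups did not overlap for TPX2 or CCNA2, and the checkpoint kinase gene BUB1B and the spindle motor gene KIF11 fell by 0.85 ± 0.16 and 0.72 ± 0.17 (adjusted p = 0.012 and 0.032). Of 32 tested members 9 were called lower and 0 higher, and all 32 differences were below 0, with a median of -0.64. The members' median deviation was -0.04, -0.05 and 0.45 log2 CPM in FL and -0.47, -0.53 and -0.45 in ΔTFR4, without overlap, beside 0.53, 0.52 and 0.54 with empty vector and -0.29, -0.49 and 0.29 in ΔTFR5. The fit of the 6 libraries alone called 0 of the 32 and 2 of the 40 replication genes, at medians of -0.63 and -0.67. Without FL replicate 1 or 3, 12 and 8 of the 32 were called lower, at medians of -0.70 and -0.47, and leaving out 1 ΔTFR4 library left 0 or 1 called.

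**Figure D4:**
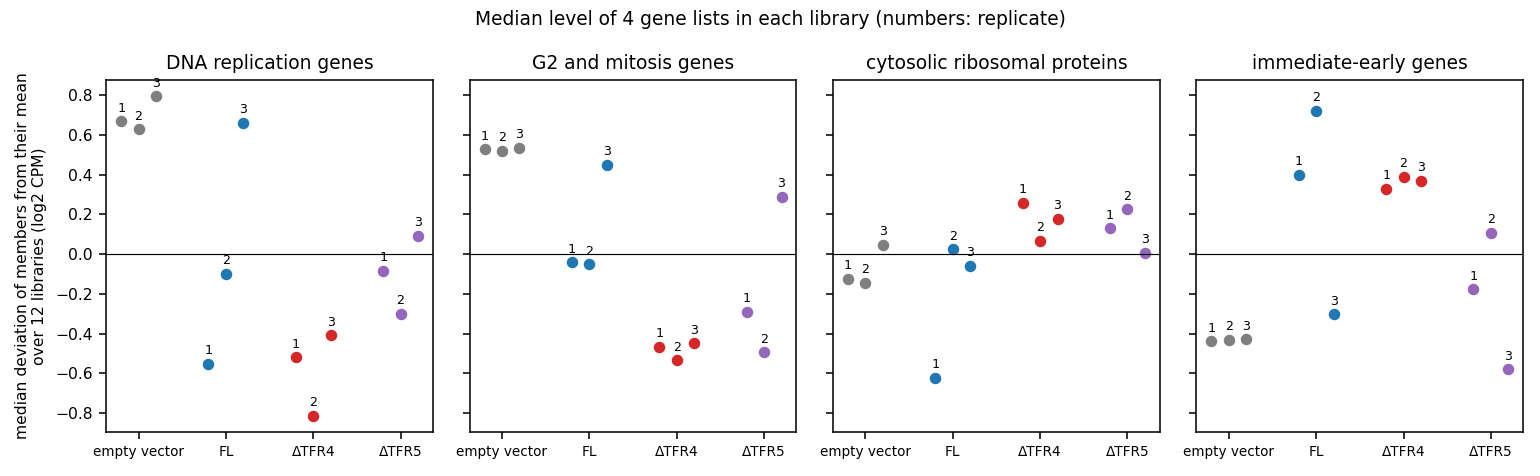
Median deviation of the members of 4 gene lists from their mean over 12 libraries (log2 CPM, vertical axis) in each library, by group (horizontal axis), with the replicate number beside each point. For DNA replication and mitosis genes the ΔTFR4 libraries lie from -0.81 to -0.41, FL replicate 3 lies near the empty vector libraries, and FL replicate 1 lies lowest of all libraries for ribosomal proteins, at -0.62.

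Cyclin D1 and the p53 pathway bear on the same cell cycle steps. CCND1 was 475, 488 and 596 CPM in FL and 379.9, 370.0 and 404 in ΔTFR4, a difference of -0.43 ± 0.16 that was not called (adjusted p = 0.132). CDKN1A, which encodes the cell cycle inhibitor p21, was 254, 328 and 220.4 in FL and 399, 431 and 318 in ΔTFR4, a difference of 0.52 ± 0.2 (adjusted p = 0.146). The CDKN1A groups overlapped, as FL replicate 2 exceeded ΔTFR4 replicate 3. Of 27 tested p53 targets, 1 was called higher and 0 lower (3.7% called, beside 4.36% of all tested genes). It was ZMAT3, an RNA-binding protein, which rose by 0.57 ± 0.13 (adjusted p = 0.035). Without FL replicate 2 its adjusted p was 0.0505. The median of the list was 0.25, with 3 of 27 below 0, and 4 or 3 were called higher without FL replicate 2 or 3. The BCL2 family, which controls cell death, had 0 of 17 called, and its lowest p values belonged to HRK at 0.95 ± 0.34 and BBC3 at 0.74 ± 0.31 (adjusted p = 0.123 and 0.183).

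Of the 7 tested members of the list of SLNCR and its linked genes, SOX9 was the only one called. SOX9, which neighbours SLNCR on chromosome 17, was 419, 439 and 321 CPM in FL and 273, 268 and 269 in ΔTFR4, and fell by 0.54 ± 0.12 (adjusted p = 0.0272). With empty vector it was 254, 263 and 249 CPM, from which ΔTFR4 differed by 0.08 ± 0.12 (adjusted p = 0.653), and FL lay above those controls by 0.62 ± 0.12 (adjusted p = 0.0425). The immediate-early gene EGR1, which encodes a zinc finger factor, was 387, 560.3 and 43.4 in FL and 643, 663 and 836 in ΔTFR4. FL replicate 3 was thus more than 8 times below the other FL libraries and near the empty vector libraries, at 23.6, 25.8 and 18.3. With that spread the EGR1 difference of 1.11 ± 0.95 was not called (adjusted p = 0.517), although the groups did not overlap. It was 0.59 without FL replicate 3 (adjusted p = 0.687). The differences were 0.11 ± 0.25 for POU4F1 and -0.14 ± 0.11 for PTPN11 (adjusted p = 0.834 and 0.467), with overlapping groups in each.

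Immediate-early genes are switched on within minutes of a growth factor signal. Of 34 such genes 0 were called, with a median of 0.11. Without FL replicate 3 the calls were 1 higher and 5 lower (median -0.13), and without FL replicate 2 they were 1 higher and 0 lower (median 0.35). The lowest p values besides those already named were at EGR3 with 0.92 ± 0.35 and NAB2, a corepressor of EGR factors, with 0.62 ± 0.23 (adjusted p = 0.139 and 0.138). Of 20 MAPK feedback genes 0 were called, with a median of -0.11, and 1 higher and 1 lower (median -0.16) without FL replicate 3. Among 14 tested genes of the EGF receptor family and its ligands only the ligand NRG1 was called, and it fell by 0.43 ± 0.1 (adjusted p = 0.0319). Of 25 cytokines and NF-kB targets the chemokine CXCL1 fell by 0.68 ± 0.17 (adjusted p = 0.0384). Of 32 interferon response genes OAS2, an antiviral sensor of double-stranded RNA, fell by 0.76 ± 0.19 (adjusted p = 0.0419). The shares called among the EGF receptor, cytokine and interferon genes were 7.1%, 4% and 3.1%, beside 4.36% of all tested genes. Leaving out FL replicate 3 gave 4 lower among the 14 EGF receptor genes and 5 lower among the 25 cytokine genes. For the interferon genes it gave 1 higher and 2 lower (median 0.03). Among all genes of the reported fit, 775 were then called higher and 1428 lower of 18752. Leaving out FL replicate 1 gave 4 lower among the interferon genes, beside 1077 of 18752 genes. The medians of the EGF receptor and cytokine genes were then -0.01 and 0.01.

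In BMP and TGF-beta signalling 3 inhibitors fell. SMAD7, the inhibitory SMAD, was 16.4, 20.7 and 18.1 CPM in FL and 9, 7.44 and 9.37 in ΔTFR4 and fell by 1.1 ± 0.16 (adjusted p = 0.00404). SKIL, a corepressor that binds SMADs, fell by 0.98 ± 0.2 (adjusted p = 0.0208), from 129, 93.7 and 70.2 to 48.5, 49.5 and 50.5 CPM. NOG, the BMP antagonist noggin, fell by 0.88 ± 0.22 (adjusted p = 0.0433), from 13.4, 15.2 and 13.2 to 6.68, 8.88 and 7.06 CPM. Without FL replicate 2 the adjusted p of NOG was 0.0686. The secreted glycoprotein gene FSTL1 rose by 0.6 ± 0.13 (adjusted p = 0.0264). The other 20 of the 24 tested members were not called, and the median was -0.33. Fits without FL replicate 1 or 3 called 1 higher and 6 lower (median -0.14) and 2 higher and 6 lower (median -0.19). Of 20 YAP and TEAD targets 1 was called (5%, beside 4.36% of all tested genes). It was ARHGEF17, an exchange factor for small GTPases, which rose by 0.56 ± 0.14 (adjusted p = 0.0432). This gene went against its list, in which 16 of 20 differences were below 0 with a median of -0.17, and without FL replicate 3 the calls were 1 higher and 6 lower (median -0.16).

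Melanocyte lineage genes served both as a readout and as a check of the cell type. S100A1, a calcium-binding protein, was 2.55, 2.51 and 1.84 CPM in FL and 0.811, 0.718 and 1.12 in ΔTFR4 and fell by 1.38 ± 0.24 (adjusted p = 0.00935). In ΔTFR5 it stood higher, at 4.93, 5.38 and 4.67. It was the only one of 15 tested lineage genes called (6.7%, beside 4.36% of all tested genes), and the median was 0.25. The regulator SOX10 ranged from 43.9 to 61.6 CPM over the 6 libraries and MITF from 75.5 to 198, while the pigment enzyme gene TYR reached at most 0.08 and the melanosome gene PMEL at most 1.02. Of 21 tested genes of dedifferentiated melanoma 1 was called higher, the cadherin CDH13 with a rise of 0.74 ± 0.14 (adjusted p = 0.0125), and 2 lower, the above SOX9 and TGFBI. That list held 2 higher and 8 lower (median -0.45) without FL replicate 3.

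The labels call the cells epithelial, and the levels of the epithelial markers were mixed. Of 14 such markers 7 stayed under 1 CPM in all 6 libraries, among them EPCAM at 0 to 0.15. CDH1 ranged from 0.68 to 1.37 CPM. KRT7 ranged from 13.8 to 26.4, CLDN4 from 6.04 to 12.9, KRT5 from 2.8 to 5.31 and KRT14 from 2.38 to 4.72. The summed level of the 14 epithelial markers was 29.5 to 49.5 CPM in FL and 35.5 to 43.2 in ΔTFR4, with 0 of 11 tested called. For 16 markers of other cell types the sum was 202 to 251 CPM in FL and 227 to 261 in ΔTFR4, nearly all of it CD68, a lysosomal protein, at 196 to 253. Of those markers ALB and INS were at 0 in all 6 libraries. The neuronal RNA-binding protein RBFOX3 was called higher, from 0.3, 0.148 and 0.344 to 0.888, 0.831 and 1.56 CPM (adjusted p = 0.0393), both low levels, and without FL replicate 2 its adjusted p was 0.0619.

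In each of the stress and metabolic lists 0 to 3 members were called, beside 4.36% of all tested genes, and all but NUPR1 were lower. HSP90AA1, the stress-inducible cytosolic HSP90, was 570.0, 702 and 1214 CPM in FL and 458, 367 and 423 in ΔTFR4, and fell by 0.99 ± 0.26 (adjusted p = 0.0488). The cochaperone gene CHORDC1 fell by 0.68 ± 0.16 (adjusted p = 0.032), and the other 17 of 19 tested chaperones were not called. In cholesterol synthesis EBP, HSD17B7 and IDI1 fell by 0.77 ± 0.16, 0.8 ± 0.2 and 0.54 ± 0.14 (adjusted p = 0.0218, 0.0393 and 0.0481), 3 of 23 tested. Of 25 hypoxia response genes the vasoactive peptide gene ADM and the lactate dehydrogenase gene LDHA fell by 0.7 ± 0.16 and 0.67 ± 0.16 (adjusted p = 0.0285 and 0.0378). The quinone reductase NQO1 fell by 0.75 ± 0.16 (adjusted p = 0.0228), the only one of 20 tested NRF2 targets called. The zinc exporter SLC30A1 fell by 0.75 ± 0.18 (adjusted p = 0.0378), 1 of 8 tested genes of zinc handling. NUPR1, a stress-induced chromatin protein, rose by 1.39 ± 0.34 (adjusted p = 0.0378), from 19, 48.3 and 15.9 to 76.6, 67.1 and 73.5 CPM, as 1 of 26 integrated stress response genes. Without FL replicate 3 the adjusted p was 0.0712 for HSP90AA1 and 0.0583 for IDI1, without FL replicate 2 it was 0.0578 for SLC30A1, and without FL replicate 1 it was 0.129 for NUPR1. Among 20 aminoacyl-tRNA synthetases, 22 genes of the unfolded protein response and 10 arrestin-domain and glucose sensor genes 0 were called, at medians of 0.11, 0.02 and 0.31. These lists also moved with the FL libraries. Leaving out FL replicate 1 gave 4 chaperones, 7 cholesterol and 6 hypoxia genes and 6 NRF2 targets called lower, beside 1077 of 18752 genes. Leaving out FL replicate 2 gave 5 synthetase genes called higher, beside 720 of 18758 genes. Leaving out FL replicate 3 turned the median of the chaperones from -0.23 to 0.15, of the NRF2 targets from -0.15 to 0.02 and of the integrated stress response from 0.2 to -0.07.

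In each list of the translation and RNA machinery 0 to 2 members were called, beside 4.36% of all tested genes. These numbers moved with the FL library that was left out. Of 78 cytosolic ribosomal proteins 0 were called, although 73 lay above 0 and the median was 0.36. The lowest adjusted p values were 0.0932 for RPL12 at 0.38 ± 0.12 and 0.0934 for RPL4 at 0.41 ± 0.13. Without FL replicate 1, where this list was lowest, its median was 0.17. Of 32 ribosome biogenesis genes BRIX1 fell by 0.56 ± 0.13 (adjusted p = 0.0319), and of 31 proteasome subunits PSMA4 fell by 0.62 ± 0.16 (adjusted p = 0.0449). The splicing genes HNRNPU and SRSF4 fell by 0.45 ± 0.12 and 0.43 ± 0.11 (adjusted p = 0.0492 and 0.0452), 2 of 25 tested, and without FL replicate 2 the adjusted p of SRSF4 was 0.0519. Of 53 tested replication-dependent histone genes, whose near-identical copies make counts uncertain, HIST1H1A and HIST1H3A fell by 2.05 ± 0.35 and 0.95 ± 0.18 (adjusted p = 0.00944 and 0.0129). None of 39 nuclear oxidative phosphorylation genes, 15 mitochondrially encoded genes and 21 small nucleolar RNA host genes was called, at medians of 0.08, -0.29 and 0.04. Without FL replicate 1 the genes called lower were 13 of 25 splicing genes, 8 of 31 proteasome genes, 7 of 32 ribosome biogenesis genes and 13 of 53 histone genes. Among all genes of the reported fit, 1077 of 18752 were then called lower. The medians of the nuclear and mitochondrially encoded respiratory genes then turned to -0.07 and 0.04. Without FL replicate 3, 8 splicing genes and 8 ribosome biogenesis genes were called lower, beside 1428 of 18752 genes. Without FL replicate 2, 6 of the 21 small nucleolar RNA host genes and 5 ribosomal protein genes were called higher, beside 720 of 18758 genes.

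**Figure D5:**
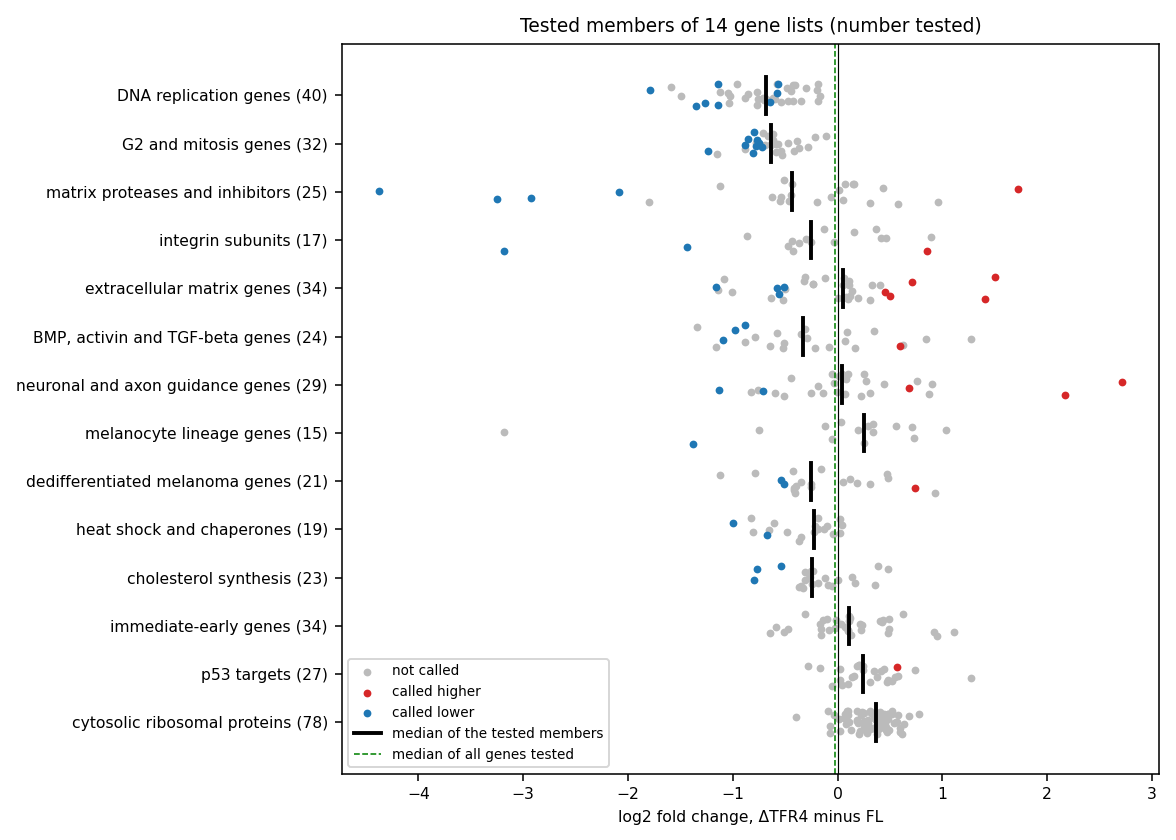
Log2 fold change (ΔTFR4 minus FL, horizontal axis) of each tested member of 14 gene lists (vertical axis, number tested in brackets); red and blue points were called higher and lower, black bars are list medians and the green line is the median of all tested genes, -0.02. All members of the DNA replication and mitosis lists lie below 0, whereas the matrix, neuronal and integrin lists hold called genes on both sides.

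Set beside ΔTFR5, the changed genes fell into different patterns. ΔTFR4 also differed from ΔTFR5 for SERPINA3, A2M, FXYD3, TFAP2B, GAS7, SOX5, EPHA3, SYTL5, S100A1, ITGB3, ITGA9, UCN2, TENM1, DLGAP1, MUC2, NLGN1, NCAM1, HTRA1 and TGFBI. In SOX5 the ΔTFR5 libraries, at 16.9, 17.2 and 24.2 CPM, lay above those of FL, and ΔTFR4 differed from ΔTFR5 by -3.11 ± 0.21 (adjusted p = 9.8e-06). For GAS7 and SYTL5 the same held, with 8.79, 8.16 and 12.4 and 8.79, 10.2 and 13 CPM in ΔTFR5 and differences of -3.86 ± 0.32 and -3.16 ± 0.26 (adjusted p = 3.92e-05 and 3.92e-05). The calls against ΔTFR5 of UCN2, HTRA1 and ITGA9 were lost without any 1 of the ΔTFR4 libraries. That of NLGN1 was lost without ΔTFR4 replicate 1 or 2 and that of TGFBI without ΔTFR4 replicate 2 or 3. No ΔTFR5 library was left out in turn. For RRM2, BGN and DNAH1 the differences between the 2 deletions were -0.66 ± 0.24, 0.27 ± 0.21 and 0.26 ± 0.27 (adjusted p = 0.388, 0.711 and 0.811), which does not show that the deletions act alike. RRM2 was 96.4, 81.2 and 172 CPM in ΔTFR5, where replicate 3 stood apart from the others, and 335, 317 and 336 with empty vector. The comparisons share the ΔTFR4 libraries, so their values are not independent of each other. SLNCR itself was 515, 498 and 444 CPM in ΔTFR4 and 321, 376 and 192 in ΔTFR5, without overlap. That difference of 0.71 ± 0.26 was not called (adjusted p = 0.411), and its part in the other differences between the deletions was not tested.

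The empty vector libraries give the background for all plasmids. In ΔTFR4 against empty vector SERPINA3, A2M and ITGB3 were lower, with differences of -5.45 ± 0.29, -4.02 ± 0.31 and -2.12 ± 0.17 (adjusted p = 1.42e-06, 1.91e-05 and 2.31e-05). MUC2, TENM1 and HTRA1 were higher by 3.77 ± 0.25, 2.95 ± 0.24 and 2.21 ± 0.17 (adjusted p = 7.52e-06, 2.47e-05 and 1.81e-05). FL itself differed from empty vector by -1.07 ± 0.22 for SERPINA3 (adjusted p = 0.0431) and by 0.23 ± 0.23 for TENM1 (0.538). CDKN1A and EGR1, not called against FL, were higher in ΔTFR4 than with empty vector by 0.84 ± 0.2 and 4.98 ± 1.12 (adjusted p = 0.0103 and 0.0121). For these genes FL differed from empty vector by 0.32 ± 0.2 and 3.87 ± 1.06 (adjusted p = 0.312 and 0.08). SMAD7, SKIL and SLC30A1 differed from empty vector by -0.57 ± 0.16, -0.49 ± 0.2 and 0.01 ± 0.18 in ΔTFR4 (adjusted p = 0.0197, 0.0885 and 0.97).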

How the data were processed

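RNA of transfected A375 cells was sequenced after depletion of ribosomal RNA. The values are estimated counts per gene (expected counts), not scaled to depth, that the authors deposited for the 12 libraries of the second batch. The deposited table's own name credits salmon. The submitters' processing notes instead name cutadapt 2.5, STAR 2.7.3a, featureCounts (Subread 1.6.2), DESeq2 1.24.0 and the builds GRCm38 and GRCh38, with no role for each, so which steps made the table is not settled. Which annotation release and strandedness applied is not given in the sources used here. Of the deposited values, 83.7% were whole within 0.01, and all were rounded to whole numbers. Other libraries of the series, counted separately in a first batch, were not used here. Totals ran from 24810226 to 33063445 counts per library. Intervals given for counts cover counting error only.

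Genes were kept by filterByExpr (minimum count 10, minimum total 15), scaled by TMM and tested with edgeR 4.0.16 (R 4.3.3), quasi-likelihood test, with Benjamini-Hochberg adjustment over all 18763 genes. Groups followed the labels, and the 4 groups of the batch shared 1 estimate of the spread. Nothing in the labels says that replicates came from separate cultures beyond calling them biological, so p-values measure the spread between these libraries. Standard errors were taken as the log2 fold change over the root of the F statistic, and fitted fold changes use edgeR's default prior count. A prior count of 2 was used only for log2 CPM values, such as mean levels, principal components and GC trends. Alternatives were DESeq2 1.42.0 with its own fit, other size factors, other filters, the 2 groups alone, a replicate block and removal of GC trends. Each FL and ΔTFR4 library was also left out in turn, but no ΔTFR5 or empty vector library was. Coordinates and GC content came from GENCODE 29 (GRCh38), and promoters from RefSeq (GRCh38.p14). The fit was tested on simulated data in which each gene had the same spread in all groups. The FL libraries differed more from each other than those of the other groups, and that simulation does not cover this case.

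Named genes were all genes linked with SLNCR, the 15 largest called rises and falls with a mean of at least 1 log2 CPM, no clone name and groups that do not overlap, the 10 lowest adjusted p values, up to 4 called genes per list with the lowest adjusted p, and the 2 lowest p values of lists with none called. The comparison, the lists and these rules were chosen with earlier results of these data known. Some genes that these rules take are not reported here.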

Additional observations from a re-analysis of the deposited data

How the results depend on the processing

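Of the settings that could change the calls between ΔTFR4 and FL, other size factors (834 calls), no filter on low counts (912) and a minimum count of 50 (910) kept the count of 819 within a factor of 1.5. DESeq2 gave 1877 calls, 751 higher and 1126 lower. The fit of the 2 groups alone gave 33 calls, 16 higher and 17 lower, with fewer libraries behind the spread. It also lacked the empty vector and ΔTFR5 libraries, whose replicates correlated at 0.985 to 0.991 (Spearman), beside 0.954 to 0.979 in FL. How far the smaller spread of those groups set the 819 calls was not tested. Removal of each library's GC trend gave 1374 calls, of which 867 were lower. Leaving out each FL or ΔTFR4 library in turn gave 79 to 2220 calls, 40 to 779 higher and 39 to 1441 lower. The high counts came from leaving out an FL library and the low ones from leaving out a ΔTFR4 library. The cause was not tested. The removal of the GC trend without FL replicate 1, chosen after seeing the data, gave 2107 calls, 644 higher and 1463 lower. Of the calls, 43.5% were higher in the reported fit, 59.6% without ΔTFR4 replicate 1 and 30.6% with the GC trend and FL replicate 1 both removed.

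A fit with the replicate block gave 839 calls, 384 higher and 455 lower, of which 717 were among the 819 in direction. The replicate block with the GC trend removed gave 1447 calls, 539 higher and 908 lower. Libraries of FL and ΔTFR4 with the same number correlated in their deviations at -0.11 to 0.17, over 0.1 in 1 of 3 pairs, so the numbers were not taken to pair the samples.

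The difference in SLNCR stayed below 0 and uncalled in all settings, at -0.52 to -0.04. None of the 78 named genes that were called against FL changed direction against FL. The 19 changes of direction concerned differences that were not called. For these, leaving out each FL or ΔTFR4 library in turn gave the following ranges. No ΔTFR5 or empty vector library was left out, so the ranges do not cover the spread of those groups. Against FL it was -0.0415 to 0.379 for POU4F1. Against ΔTFR5 they were -0.137 to 0.0371 for DLEU2, -0.0188 to 0.437 for EGR3, -0.0453 to 0.114 for FSTL1, -0.0596 to 0.0668 for the tRNA synthetase gene RARS, -0.0453 to 0.0754 for IDI1, -0.0421 to 0.0659 for ADM, -0.121 to 0.0158 for BRIX1, -0.0172 to 0.044 for SRSF4 and -0.0265 to 0.487 for RBFOX3. Against empty vector they were -0.193 to 0.0301 for POU4F1 and -0.0535 to 0.0800 for SLC30A1. SLC30A1 against empty vector was also -0.0081 with other size factors, -0.0061 with DESeq2, -0.0419 with the GC trend removed, -0.0447 with the replicate block and the GC trend removed, and -0.0378 without the GC trend and FL replicate 1. The cause was not tested for these.

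With 3 libraries a group, the spread of FL and the 12 libraries that share its estimate set what can be called, and 4313 genes had an unadjusted p under 0.05. Genes at a few counts per library, such as MYOCD and TFAP2B in ΔTFR4, are limited by depth.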

Other observations

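A few transcripts were close to 0 in all groups but one, and they were chosen for mention after their values were seen. AC100801.1 (ENSG00000253154), annotated in GENCODE 29 as a processed transcript on chromosome 8, held 692, 835 and 635 counts in the ΔTFR4 libraries and 0, 0 and 2 in FL. The ratio of the levels was 1261 (exact 95% interval 349 to 10418, counting error only; adjusted p = 5.95e-06 by edgeR), and the empty vector and ΔTFR5 libraries held 0 or 1 count each.

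USHBP1, which encodes a protein that binds harmonin, was 6.43, 8.75 and 2.59 CPM in FL and 0.27, 0.15 and 0.45 in ΔTFR4 (adjusted p = 0.00251 by edgeR). TENT5C, which encodes a poly(A) polymerase, was 21.1, 1.14 and 0.41 CPM in FL and 0.35, 0.11 and 0.15 in ΔTFR4 (adjusted p = 0.0435), so its FL mean rested on FL replicate 1. Small nucleolar RNAs, which differ in length from most transcripts, had 0 of 65 tested members called at a median of 0.77, beside -0.02 over all tested genes.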
